A study of Homo sapiens with 12 samples.

Results

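Notch receptors, their ligands and 2 direct target genes were followed in 12 RNA libraries of H295R, a steroid-producing line established from a human adrenocortical carcinoma. The genes were chosen by name, as 10 rows of a count table of 60670 genes: the receptors NOTCH1, NOTCH2 and NOTCH3, the ligands JAG1, JAG2, DLL1 and DLL3, the targets HES1 and HEY1, and DLK2, the paralog of DLK1. The libraries came from H295R cells labelled wild type (WT), DLK1 knock-down (KD) and DLK1 over-expression (OE), 4 of each with replicate numbers 3 to 6, and the series compared cells that differ in their dose of DLK1. The labels give no construct, promoter, knock-down method or number of clones, and do not tell whether the replicates are independent cultures. The p-values therefore measure the spread between these libraries, which may be technical. No group is labelled as an engineered control. In a difference from WT the dose of DLK1 and the engineering of the cells cannot be told apart.

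Notch receptors are transmembrane proteins that are switched on by ligands of the Jagged (JAG) and Delta-like (DLL) families on a neighbouring cell. Binding lets ADAM10 and then the gamma-secretase complex cut the receptor, and the freed intracellular part enters the nucleus and joins the DNA-binding protein RBPJ and a Mastermind-like coactivator. Some genes of the HES and HEY families, which encode transcriptional repressors, are the classical targets. DLK1 resembles the Delta ligands but lacks the DSL domain with which they bind the receptor. It is counted among the non-canonical ligands, and in the rodent adrenal gland it marks cells of the capsule and the outermost cortex.

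Gene counts summed to between 9303266 and 13797397 per library, and 15916 genes passed a filter on low counts and were tested. Of the 10 Notch genes 9 passed; HEY1 did not. DLK1 checked the labels. Its level in CPM (read count scaled to a common library size) was 2790, 2729, 2674 and 2485 in WT replicates 3 to 6, 1484, 1261, 1236 and 1361 in KD, and 3170, 3014, 3343 and 3298 in OE, with no overlap between the groups. Groups that did not overlap were seen for 12.8% of all tested genes in KD against WT, 11.8% in OE against WT and 16.2% in OE against KD. KD replicate 3 stood apart from its group. Its counts differed from those of the other KD libraries by a chi-square of 5.74 to 9.94 per degree of freedom, against 3.64 to 4.02 among the other 3, and 4.99% of them came from the mitochondrial genome, against 6.65% to 8.37% in the other 11 libraries. All 10 adrenocortical markers were expressed, with summed levels of 1669 to 1761 CPM in WT, 1334 to 1563 in KD and 1619 to 1726 in OE. None of 7 endothelial markers passed the filter, and CDH5 and ERG had no count in any library. Of 6 immune markers 2 passed, at 1.51 to 3.51 CPM in sum in WT, 0.832 to 2.83 in KD and 1.81 to 3.43 in OE, and CD3E had no count. Of 5 chromaffin cell markers 2 passed, and their sum was higher in KD, at 55.5 to 68.0 CPM, than in WT at 32.8 to 35.2 and OE at 31.2 to 37.9, while TH and DBH had no count; most of it was CHGB, at 30.9, 58.2 and 32.5 CPM on average in WT, KD and OE.

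The promoters of HES1, NOTCH3 and JAG1 are printed here. HES1 is the direct target that the cells expressed, and NOTCH3 and JAG1 are the members that were called as changed. They are the 250 bases before the annotated start of each gene, 5′ to 3′ on the gene's strand, from RefSeq on GRCh38.p14: chr3:194135898-194136147 (plus strand) for HES1, chr19:15200996-15201245 (minus strand) for NOTCH3 and chr20:10674000-10674249 (minus strand) for JAG1. Capitals mark TGGGAA, the core of the RBPJ binding motif, searched on both strands.
HES1: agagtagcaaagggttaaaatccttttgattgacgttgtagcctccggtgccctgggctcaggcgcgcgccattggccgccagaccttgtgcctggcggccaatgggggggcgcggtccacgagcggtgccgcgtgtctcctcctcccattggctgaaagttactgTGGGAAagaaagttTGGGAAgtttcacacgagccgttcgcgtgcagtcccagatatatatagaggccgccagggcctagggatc
NOTCH3: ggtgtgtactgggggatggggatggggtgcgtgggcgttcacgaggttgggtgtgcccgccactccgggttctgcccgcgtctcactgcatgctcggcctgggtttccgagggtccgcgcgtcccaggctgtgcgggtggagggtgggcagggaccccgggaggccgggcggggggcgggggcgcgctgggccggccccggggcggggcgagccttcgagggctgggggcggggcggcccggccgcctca
JAG1: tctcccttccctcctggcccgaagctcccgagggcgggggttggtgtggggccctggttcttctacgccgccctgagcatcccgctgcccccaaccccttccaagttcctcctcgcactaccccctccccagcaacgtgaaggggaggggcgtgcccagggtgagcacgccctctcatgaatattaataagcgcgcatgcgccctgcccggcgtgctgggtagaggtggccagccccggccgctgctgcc
The HES1 window held 2 matches, beginning 84 and 70 bases before the start and both on the gene's strand. Promoters of 7 members were searched, with DLL1, DLL3 and HEY1 not among them, and the 6 beside HES1 held no match in the same window. Among all 34943 promoter windows of this length 20.9% held at least 1 match and 2.89% held 2 or more. The N-box CACNAG, a site that HES proteins can bind, was found 3 times in the HES1 window and 1 time in that of NOTCH3, with no overlap with TGGGAA, and 32.1% of all windows held it. These are matches of letters in a window and no evidence of binding.

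To compare levels between genes, CPM was divided by the length of each gene's annotated exons in kb. On this scale NOTCH2 was the highest receptor in every library, at 15.2 ± 1.42 CPM per kb in WT (mean ± SD, n = 4 here and below). It stood at 14.1 ± 0.965 in KD and at 14.5 ± 0.632 in OE. NOTCH3 followed in WT at 2.05 ± 0.204, above NOTCH1 at 0.897 ± 0.177, and the ranges of the pair did not overlap. In KD, NOTCH3 stood at 0.868 ± 0.131 CPM per kb and NOTCH1 at 0.844 ± 0.256, and in OE at 0.819 ± 0.237 and 0.983 ± 0.169, so their order no longer exceeded their spread. NOTCH4, a receptor outside the 10 genes, was the lowest at 0.222 ± 0.106 in WT. As a share of the summed receptor level per kb, NOTCH2 made up 82.6% ± 3.4 in WT, against 88.2% ± 0.996 in KD and 87.9% ± 0.924 in OE. The share of NOTCH3 was 11.2% ± 1.69 in WT, against 5.46% ± 0.917 in KD and 4.93% ± 1.41 in OE.

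The canonical ligands were expressed at low levels, and DLL1 and DLL3 were the highest of them. In WT the levels per kb were 1.83 ± 0.202 CPM for DLL1, 1.05 ± 0.397 for DLL3, 0.274 ± 0.0423 for JAG1 and 0.226 ± 0.0785 for JAG2. The ranges of DLL1 and DLL3 did not overlap in WT, while those of JAG1 and JAG2 did. DLK2 lay at 2.01 ± 0.245 CPM per kb in WT, close to DLL1 and within its spread. DLK1 reached 503 ± 24.8 CPM per kb in WT, 251 ± 21.3 in KD and 604 ± 27.8 in OE. Its level per kb was 145 ± 20.6 times the sum of JAG1, JAG2, DLL1, DLL3 and DLL4 in WT, 63.8 ± 9.92 times in KD and 162 ± 31.2 times in OE. CCN3, a proposed non-canonical ligand outside the 10 genes, was nearer to it, at 95.3 ± 3.75 CPM per kb in WT, 107 ± 6.28 in KD and 120 ± 4.82 in OE.

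**Figure D1:**
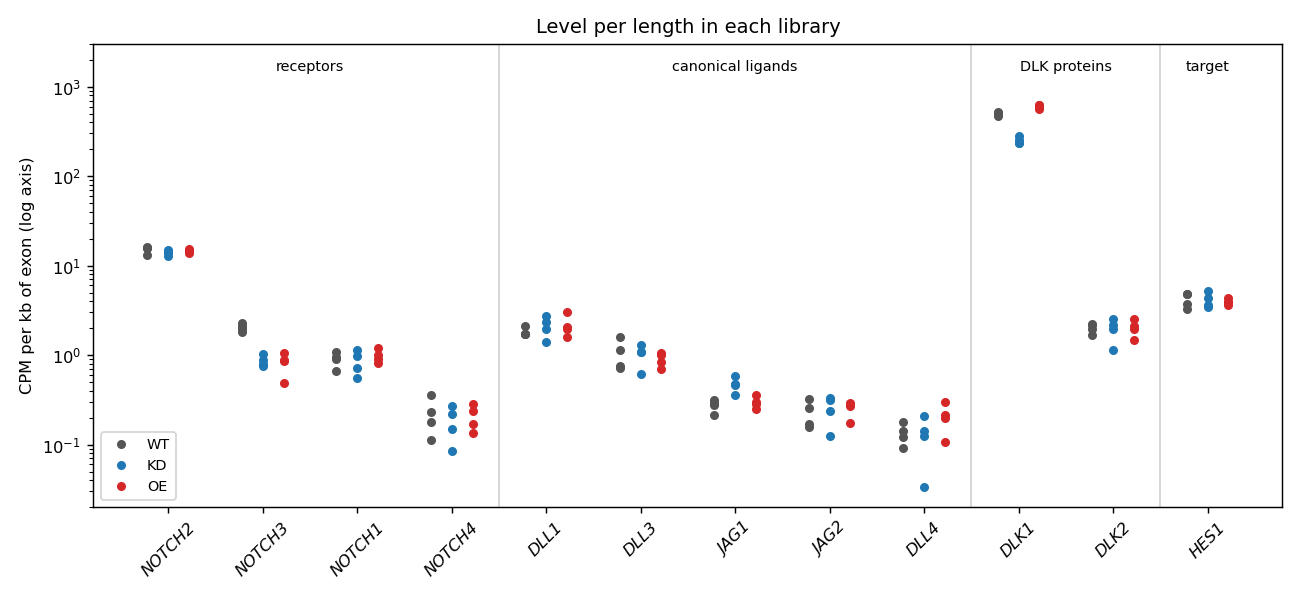
Level of the receptors, ligands, DLK proteins and HES1 in CPM per kb of annotated exon, on a log axis, with 1 point per library (4 each of WT in grey, KD in blue and OE in red). NOTCH2 leads the receptors at 13.1 to 16.1 in WT, DLL1 and DLL3 lead the canonical ligands, and DLK1 lies far above them all in every group.

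NOTCH3 and JAG1 were the genes of this set that were called. By edgeR, with an adjusted p under 0.05, JAG1 was higher and NOTCH3 lower in KD against WT, which is 1 and 1 of the 9 tested, beside 9.06% of all 15916 tested genes called in either direction (3.84% higher and 5.22% lower). In OE against WT 0 were higher and 1 lower (NOTCH3), with 1 of the 9 at an unadjusted p under 0.05 and 1 called by DESeq2, beside 5% of all genes called (2.13% higher and 2.87% lower). In OE against KD 0 of the 9 were called by edgeR, 1 had an unadjusted p under 0.05 and DESeq2 called 0, beside 13.8% of all genes (edgeR; 7.27% higher and 6.55% lower). The median log2 change of the 9 was -0.005 in KD, -0.003 in OE and 0.025 in OE against KD, and that of all tested genes was 0.005, 0.002 and -0.002. These shares of all genes depend on the scaling: with library sizes alone 966 genes were higher and 625 lower in KD, in place of 611 and 831, and 487 and 369 in OE, in place of 339 and 457. NOTCH3 and JAG1 kept their calls and directions with that scaling.

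NOTCH3, a receptor best known from the smooth muscle cells and pericytes of blood vessels, was the only receptor that was called. NOTCH3 was lower than in WT both with less and with more DLK1. It lies on the minus strand of GRCh38 chromosome 19 from 15159038 to 15200981 (ENSG00000074181). In replicates 3, 4, 5 and 6 its level was 18.6, 21.6, 17.0 and 19.8 CPM in WT, 8.39, 9.79, 7.42 and 7.02 CPM in KD, and 9.81, 4.55, 8.36 and 8.03 CPM in OE. All 4 KD and all 4 OE libraries lay below all 4 WT libraries, and KD and OE overlapped. The means were 19.2 ± 1.91, 8.16 ± 1.23 and 7.69 ± 2.23 CPM. On the log2 scale, with standard errors from the quasi-likelihood fit, NOTCH3 fell by 1.24 ± 0.16 in KD against WT (edgeR, adjusted p = 5.64e-08) and by 1.32 ± 0.16 in OE against WT (edgeR, adjusted p = 1.6e-08). Both comparisons use the same WT libraries.

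The direct comparison of OE with KD gave NOTCH3 a log2 difference of -0.09, with a 95% interval of -0.42 to 0.25 (edgeR, adjusted p = 0.81). DLK1 itself differed by 1.26 ± 0.05 on that scale. A relation of NOTCH3 to the dose of DLK1 was not tested. The NOTCH3 calls against WT were made under each of 18 alternatives, and the change in KD was -1.25 without KD replicate 3 (edgeR, adjusted p = 7.79e-08). OE replicate 4 was the lowest of the OE libraries, and without it the change in OE was -1.14. The genes beside NOTCH3 on chromosome 19 were also read. The median log2 change of the 20 nearest tested genes, 10 on either side, was -0.04 in KD and -0.112 in OE. In bulk RNA a smaller number of cells that express a gene and a lower level in each cell cannot be told apart.

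Because NOTCH3 marks mural cells, markers of mural cells and fibroblasts were set beside it. Of 10 such markers 4 passed the filter, and their summed level was 35.5 to 40.4 CPM in WT, 35.0 to 42.4 in KD and 28.5 to 31.4 in OE. PDGFRB, a defining pericyte receptor, was at or under 0.0949 CPM on average in every group, and COL1A2 had no count. The expressed markers did not run together, with levels given here on average in WT, KD and OE. The pericyte marker RGS5 was at 8.1, 6.47 and 4.19 CPM, in the same order as NOTCH3. Of the smooth muscle markers, ACTA2 was at 9.59, 13.1 and 6.46 CPM. MYH11 was low and highest in WT, at 1.27, 0.917 and 1.04 CPM. COL1A1 of fibroblasts was at 17.9, 17.4 and 17.6 CPM. The summed marker level thus overlapped between KD and WT and was lower in OE than in WT. The part of these markers, RGS5 and MYH11 included, in the NOTCH3 differences was not tested.

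NOTCH2, the main receptor by level, and NOTCH1 were not called in any comparison. NOTCH2 (chromosome 1, 119911553 to 120069626) measured 265, 220, 266 and 270 CPM in WT replicates 3 to 6, 246, 232, 216 and 252 in KD and 236, 234, 255 and 253 in OE. WT replicate 4 was far below the other WT libraries and inside the range of the engineered cells. The log2 change of NOTCH2 was -0.11 ± 0.05 in KD (edgeR, adjusted p = 0.243) and -0.06 ± 0.05 in OE (edgeR, adjusted p = 0.624). Without WT replicate 4 the KD change was -0.17 and was called (edgeR, adjusted p = 0.0219). The near-identical NOTCH2NL copies on chromosome 1 make the count of NOTCH2 less certain. NOTCH2NLA had 135 counts and NOTCH2NLC 202 over all 12 libraries, against 34400 for NOTCH2. The treatment of multiply matching reads is not given, so these counts do not show how many reads of NOTCH2 were affected.

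NOTCH1 (chromosome 9, 136494433 to 136545786) had WT libraries between 6.85 and 11.3 CPM, KD libraries between 5.83 and 11.7 and OE libraries between 8.47 and 12.5, and the groups overlapped throughout. Its 95% intervals were -0.45 to 0.29 on the log2 scale in KD and -0.22 to 0.51 in OE, so a change of the size seen in NOTCH3 lay outside them. NOTCH4, with 10 to 37 counts per library, was not called in any comparison. The intervals of NOTCH4 were wider, at -1.03 to 0.45 in KD and -0.83 to 0.63 in OE, and changes inside them were not excluded.

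JAG1, a ligand that is required for bile duct and heart development and mutated in Alagille syndrome, was the only ligand that was called, and only in KD against WT. It lies on the minus strand of chromosome 20 from 10637684 to 10673999 (ENSG00000101384). Its level was 2.55, 2.00, 2.92 and 2.71 CPM in WT replicates 3 to 6, 4.46, 4.27, 5.43 and 3.34 CPM in KD, and 2.67, 3.35, 2.76 and 2.32 CPM in OE. Every KD library lay above every WT library, and KD replicate 6 overlapped with the OE libraries. JAG1 rose by 0.78 ± 0.26 on the log2 scale in KD (edgeR, adjusted p = 0.044), with a 95% interval of 0.26 to 1.29. The count behind it was small, 21 to 35 reads per WT library and 39 to 68 per KD library.

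The JAG1 call was fragile. It was lost without WT replicate 3, 4, 5 or 6 (edgeR, adjusted p = 0.0887, 0.127, 0.056 and 0.0734), without KD replicate 3, 4 or 5 (0.0809, 0.0638 and 0.139), without the filter on low counts (0.0928) and when WT and KD were fitted alone (0.0525). The direction was higher in KD in all of these. In OE against WT the change was 0.12 ± 0.27 (edgeR, adjusted p = 0.88), and OE against KD gave -0.66 ± 0.25 (edgeR, adjusted p = 0.0691), so a difference of JAG1 between the engineered cells did not pass the test. Of the 20 nearest tested genes on chromosome 20, 4 were called higher in KD and 0 lower, with a median log2 change of 0.156, where 3.84% of all tested genes were called higher. Among the nearest 10 genes, 5 on either side, 0 were called by edgeR in either direction and 0 by DESeq2, 4 had an unadjusted p under 0.05, and the median was 0.099. The summed chromaffin markers were also higher in KD than in WT, as given above. The part of either in the JAG1 value was not tested.

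The other ligands were not called in any comparison, and their groups overlapped. DLL1 (chromosome 6, 170282206 to 170306565), a ligand of somite formation and neurogenesis, had WT libraries between 5.54 and 6.87 CPM, KD libraries between 4.47 and 8.91 and OE libraries between 5.14 and 9.86. Its log2 change was 0.21 ± 0.2 in KD and 0.25 ± 0.2 in OE, with 95% intervals of -0.2 to 0.62 and -0.15 to 0.66. DLL3 (chromosome 19, 39498895 to 39508481), a divergent ligand that inhibits Notch signalling within the cell that makes it, lay at 1.89 to 4.13 CPM in WT, 1.63 to 3.43 in KD and 1.81 to 2.75 in OE, with 95% intervals of the change of -0.62 to 0.61 in KD and -0.84 to 0.4 in OE. JAG2 (chromosome 14, 105140981 to 105168824) was the least counted of the tested genes, with 10 to 26 reads per library, and its 95% intervals were -0.63 to 0.93 in KD and -0.6 to 0.95 in OE. For JAG2 and DLL3 changes inside these intervals were not excluded at this depth, and the smallest change that could be called was not computed.

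DLK2 (chromosome 6, 43450352 to 43456632), which encodes a protein built like DLK1 and acts with it in the control of fat cell formation in mouse cells, was not called in any comparison. It measured 5.00, 4.87, 4.34 and 3.80 CPM in WT replicates 3 to 6, 4.84, 5.6, 2.55 and 4.37 in KD, and 4.38, 3.26, 5.6 and 4.70 in OE. KD replicate 5 was the lowest library and the 3 groups overlapped. The log2 change of DLK2 was -0.06 in KD (95% interval -0.52 to 0.41) and 0.00 in OE (95% interval -0.47 to 0.46). DLL1 and DLK2 overlap FAM120B and ABCC10 on the opposite strand, which had 8257 and 4677 counts over the 12 libraries, and whether reads were counted by strand is not given in the sources used here, so the counts of both are less certain.

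Of the direct targets, HES1 was expressed in all libraries and not called in any comparison, and HEY1 was barely counted. HES1 (chromosome 3, 194136145 to 194138732), whose promoter held the pair of RBPJ core motifs printed above, measured 9.82, 9.83, 7.77 and 6.84 CPM in WT replicates 3 to 6, 10.7, 7.53, 9.02 and 7.11 in KD, and 8.19, 7.99, 7.50 and 8.97 in OE. The means were 8.56 ± 1.5, 8.58 ± 1.61 and 8.16 ± 0.615 CPM, and the groups overlapped. The log2 change was 0.00 in KD (95% interval -0.33 to 0.34; edgeR, adjusted p = 0.994), -0.07 in OE (95% interval -0.41 to 0.27; edgeR, adjusted p = 0.886) and -0.07 in OE against KD (95% interval -0.4 to 0.26; edgeR, adjusted p = 0.839). HEY1 (chromosome 8, 79764010 to 79767863) had 0 to 2 counts in a library and 10 counts over all 12, too few for a test.

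**Figure D2:**
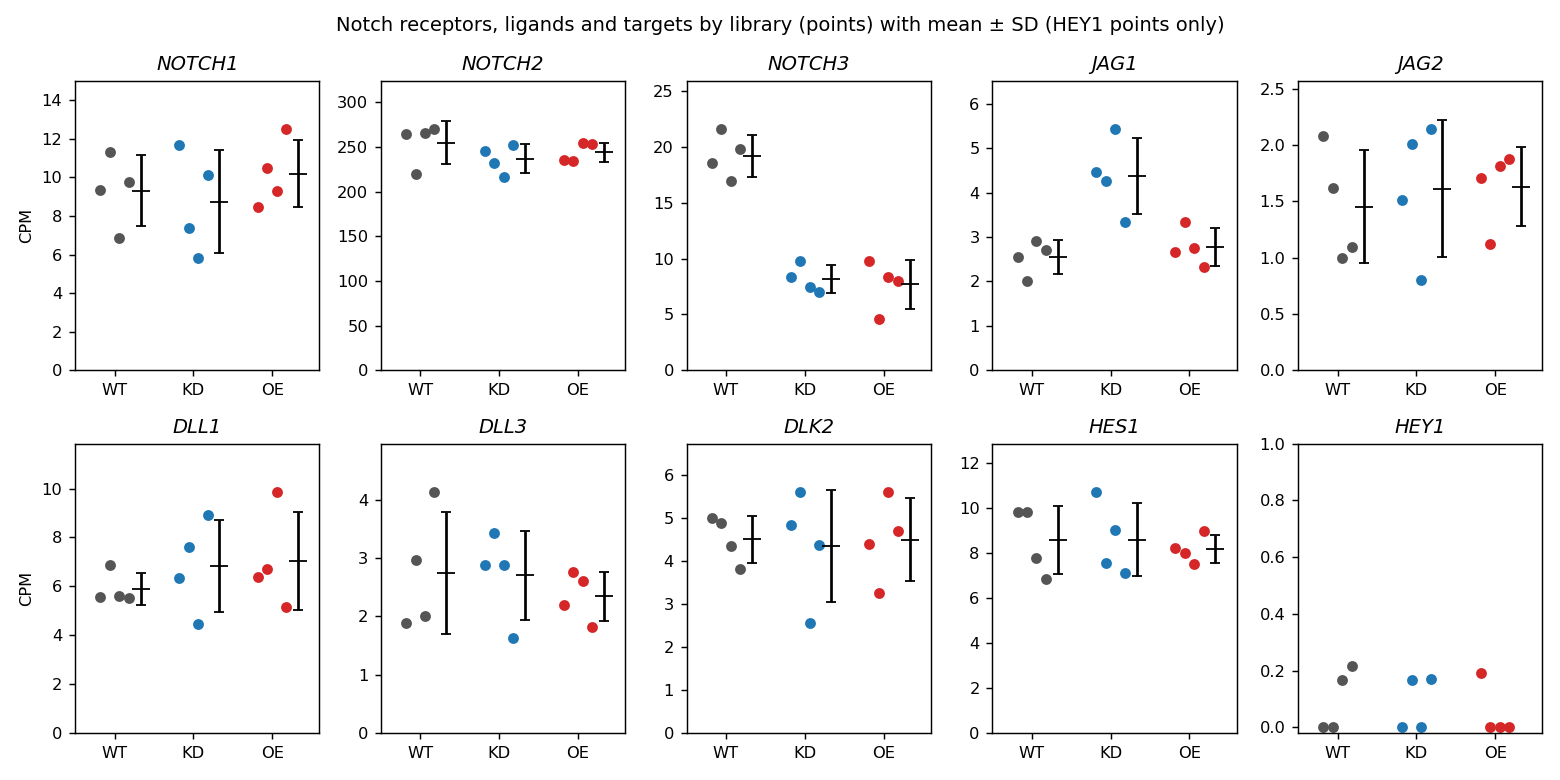
Level of each of the 10 genes in CPM, with 1 point per library in WT (grey), KD (blue) and OE (red) and the mean ± SD beside the points, except for HEY1. The NOTCH3 points of KD and OE lie at 4.55 to 9.81, all below the WT points at 17.0 to 21.6, and the JAG1 points of KD lie above those of WT, while the groups overlap for the other genes.

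**Figure D3:**
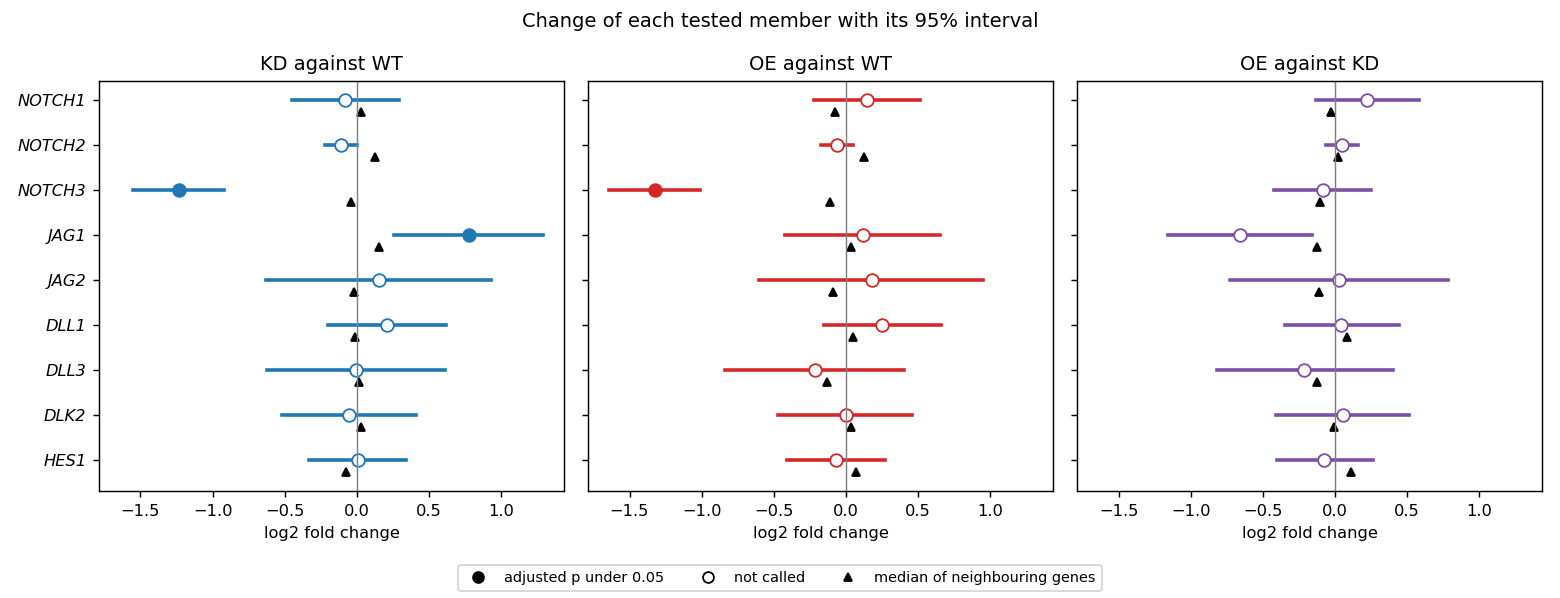
Log2 fold change (circles) with its 95% interval (lines) of the 9 tested genes in KD against WT, OE against WT and OE against KD. Filled circles passed an adjusted p of 0.05, and triangles give the median change of the tested genes on either side on the chromosome. Only NOTCH3, at -1.24 and -1.32, and JAG1 in KD, at 0.78, are filled.

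The genes whose levels ran most like those of NOTCH3 and JAG1 over the 12 libraries were found by the root mean square difference of log2 CPM after each gene was centred on its own mean. The libraries share their group, so genes with the same group differences come first. For NOTCH3 these were TSHR, for the receptor of thyrotropin (0.246), BASP1, for a membrane-bound signalling protein (0.354), and COL6A2, for a chain of collagen VI (0.359), where the median over all tested genes was 0.695. TSHR measured 17.6 ± 3.0 CPM in WT, 8.62 ± 1.03 in KD and 7.78 ± 1.21 in OE. COL6A2 differed from NOTCH3 in that it was higher in OE than in KD, by 0.52 on the log2 scale (edgeR, adjusted p = 2.87e-05). For JAG1 the nearest were LGR5, for a receptor of R-spondins (0.181), ZNF222, for a zinc finger protein (0.203), and ERBB2, for a receptor tyrosine kinase (0.207), against a median of 0.428. LGR5 measured 14.8 ± 1.82 CPM in WT and 15.6 ± 1.35 in OE, below the 26.3 ± 4.55 of KD. ZNF222 and ERBB2 were not called in any comparison. Their log2 changes in KD against WT were 0.52 and 0.38 (edgeR, adjusted p = 0.0558 and 0.12).

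The rest of the pathway was described with 80 genes in 7 roles, of which 71 passed the filter. In KD against WT 3 were called higher and 1 lower, which is 5.63% of those tested beside 9.06% of all genes. In OE against WT 4 were higher and 2 lower, 8.45% beside 5%, and in OE against KD 6 were higher and 4 lower, 14.1% beside 13.8%. The shares thus lay near those of all genes, and the genes named here are the 14 called in at least 1 comparison.

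On the signal-receiving side of the pathway RBPJ and APH1B were higher in OE than in both WT and KD. RBPJ, the DNA-binding partner of the cleaved receptor, measured 113, 119, 123 and 142 CPM in WT replicates 3 to 6, 111, 127, 129 and 122 in KD, and 147, 155, 154 and 148 in OE. All 4 OE libraries lay above the other 8. RBPJ rose by 0.28 ± 0.06 on the log2 scale in OE against WT (edgeR, adjusted p = 0.000846) and by 0.30 ± 0.06 in OE against KD (edgeR, adjusted p = 9.97e-05), while in KD against WT the change was -0.02 with a 95% interval of -0.14 to 0.09. RBPJ has processed pseudogenes, so its count is less certain.

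APH1B, for a subunit of gamma-secretase, measured 25.5, 29.7, 30.4 and 28.9 CPM in WT replicates 3 to 6, 25.6, 26.3, 31.0 and 26.3 in KD, and 40.8, 37.9, 38.9 and 37.6 in OE. The OE libraries again lay above all others, and APH1B rose by 0.44 ± 0.09 in OE against WT (edgeR, adjusted p = 0.000785) and by 0.51 ± 0.09 in OE against KD (edgeR, adjusted p = 3.09e-05). APH1A, for the alternative subunit, was not called, with a log2 change of 0.04 in OE against WT. ADAM10, for the protease that makes the first cut, rose in OE against KD by 0.25 ± 0.05 (edgeR, adjusted p = 5.15e-05), with 186 to 209 CPM in KD, 210 to 222 in WT and 222 to 244 in OE. Neither of its differences from WT was called. The other 7 genes of receptor cleavage, presenilins and nicastrin among them, were not called in any comparison.

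MIB1, for the ubiquitin ligase that drives endocytosis of the ligand and so acts in the ligand-bearing cell, measured 78.2, 71.0, 80.8 and 83.6 CPM in WT replicates 3 to 6, 78.9, 77.1, 71.0 and 76.7 in KD, and 99.5, 109, 102 and 95.7 in OE. OE lay above WT and KD without overlap, and MIB1 rose by 0.37 ± 0.06 in OE against WT (edgeR, adjusted p = 2.68e-05) and by 0.42 ± 0.06 in OE against KD (edgeR, adjusted p = 9.03e-07). The 20 nearest tested genes had median log2 changes in OE against WT of -0.003 for RBPJ, 0.119 for APH1B and 0.114 for MIB1. Of these neighbours 2, 8 and 3 had an unadjusted p under 0.05 (edgeR), and 0 were called. ADAM10 lies on chromosome 15, as APH1B does. Its 20 nearest tested genes had medians of 0.142 in OE against WT and 0.056 in OE against KD. The part of the neighbourhood in these changes was not tested. In the same role as MIB1, NEDD4L, for a ubiquitin ligase, rose by 0.34 ± 0.08 in OE against KD (edgeR, adjusted p = 0.00221). NUMBL, for a relative of the Notch inhibitor NUMB, fell by 0.38 ± 0.10 (edgeR, adjusted p = 0.00563). Their 20 nearest tested genes had medians in OE against KD of 0.038 for NEDD4L and -0.147 for NUMBL, whose part was not tested. NUMB, ITCH and FBXW7 were not called in any comparison.

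Among further ligands, some of them proposed as non-canonical, 3 genes were called. DNER, for a neuronal transmembrane protein with EGF repeats, fell as NOTCH3 did in both engineered groups, from 63.9 to 70.4 CPM in WT to 47.2 to 55.2 in KD and 48.2 to 60.2 in OE. Its log2 change was -0.39 ± 0.07 in KD and -0.30 ± 0.07 in OE (edgeR, adjusted p = 0.000114 and 0.00517), and OE against KD gave 0.09 with a 95% interval of -0.06 to 0.23. CNTN1, for a cell adhesion protein of neurons, fell by 1.65 ± 0.31 in OE (edgeR, adjusted p = 0.000259) from 3.51 to 4.82 CPM in WT to 0.869 to 1.63. The counts behind this fall were small, 41 to 51 reads per WT library and 12 to 19 per OE library. In KD CNTN1 lay at 1.60 to 3.51 CPM, with a log2 change of -0.77 ± 0.29 that was not called (edgeR, adjusted p = 0.0892).

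CCN3, for a secreted matricellular protein that binds NOTCH1, was the most abundant of these, at 242 to 263 CPM in WT, 266 to 302 in KD and 306 to 337 in OE, with no overlap between the 3 groups. It rose by 0.16 ± 0.04 in KD and by 0.33 ± 0.04 in OE against WT (edgeR, adjusted p = 0.0123 and 2.03e-07) and by 0.17 ± 0.04 in OE against KD (edgeR, adjusted p = 0.00424). The call in KD was lost without WT replicate 5 (edgeR, adjusted p = 0.0778) and without KD replicate 3 or 6 (0.0513 and 0.0643).

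Of 6 tested genes on a list of further targets, HES6 was called. The list was made by name, and whether HES6 answers to Notch in these cells was not tested. HES6, which encodes a HES protein that antagonises HES1, rose by 0.66 ± 0.15 in KD against WT (edgeR, adjusted p = 0.00234), from 7.25 to 8.44 CPM to 10.4 to 14.3. It lay at 9.31 to 13.3 CPM in OE, above all WT libraries, where the change of 0.43 ± 0.16 was not called (edgeR, adjusted p = 0.1). NRARP, HEYL, HEY2, HES7 and MYC were not called in any comparison. The other 5 targets on the list did not pass the filter: HES2 and HES5 had no count in any library, and HES4, SOX9 and CCND1 had at most 10, 5 and 9 counts in a library.

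Among the enzymes that add sugars to the receptors' EGF repeats, EOGT rose by 0.40 ± 0.11 in KD against WT (edgeR, adjusted p = 0.0139, and 0.0564 without WT replicate 6). In OE against WT its change of 0.34 ± 0.11 was not called (edgeR, adjusted p = 0.0634), though all 4 OE libraries lay above all WT libraries. OE against KD gave EOGT -0.06 (edgeR, adjusted p = 0.801). For this role in OE against WT edgeR called 0 genes and DESeq2 1. POGLUT2 fell by 0.25 ± 0.08 in OE against KD (edgeR, adjusted p = 0.0318). Of the corepressors of RBPJ, L3MBTL3 fell by 0.20 ± 0.05 in OE against KD (edgeR, adjusted p = 0.00731) and TLE1 by 0.14 ± 0.05 (edgeR, adjusted p = 0.0433). The 20 nearest tested genes had medians in OE against KD of -0.2 for POGLUT2, 0.176 for L3MBTL3 and -0.065 for TLE1. Beside POGLUT2 edgeR called 3 of them lower and 0 higher, where 6.55% and 7.27% of all tested genes were called. The part of the neighbourhood in these changes was not tested. The POGLUT2 call was lost without KD replicate 4, 5 or 6 or OE replicate 3, 4 or 5 (edgeR, adjusted p = 0.0501 to 0.099) and with no filter (0.0538). The TLE1 call was lost without any of 9 libraries, at adjusted p up to 0.249 without KD replicate 3. It was also lost with DESeq2 (adjusted p = 0.0747) and with the 2 groups fitted alone (edgeR, adjusted p = 0.0687). The Fringe enzymes LFNG and RFNG, the Mastermind-like coactivators and POFUT1 were not called by edgeR in any comparison. MFNG, also a Fringe enzyme, had 4 counts over all 12 libraries and was not tested. In OE against KD MAML3 was at -0.26 ± 0.09 (edgeR, adjusted p = 0.0671). Of RBPJ and its coactivators edgeR called 1 gene there and DESeq2 2.

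**Figure D4:**
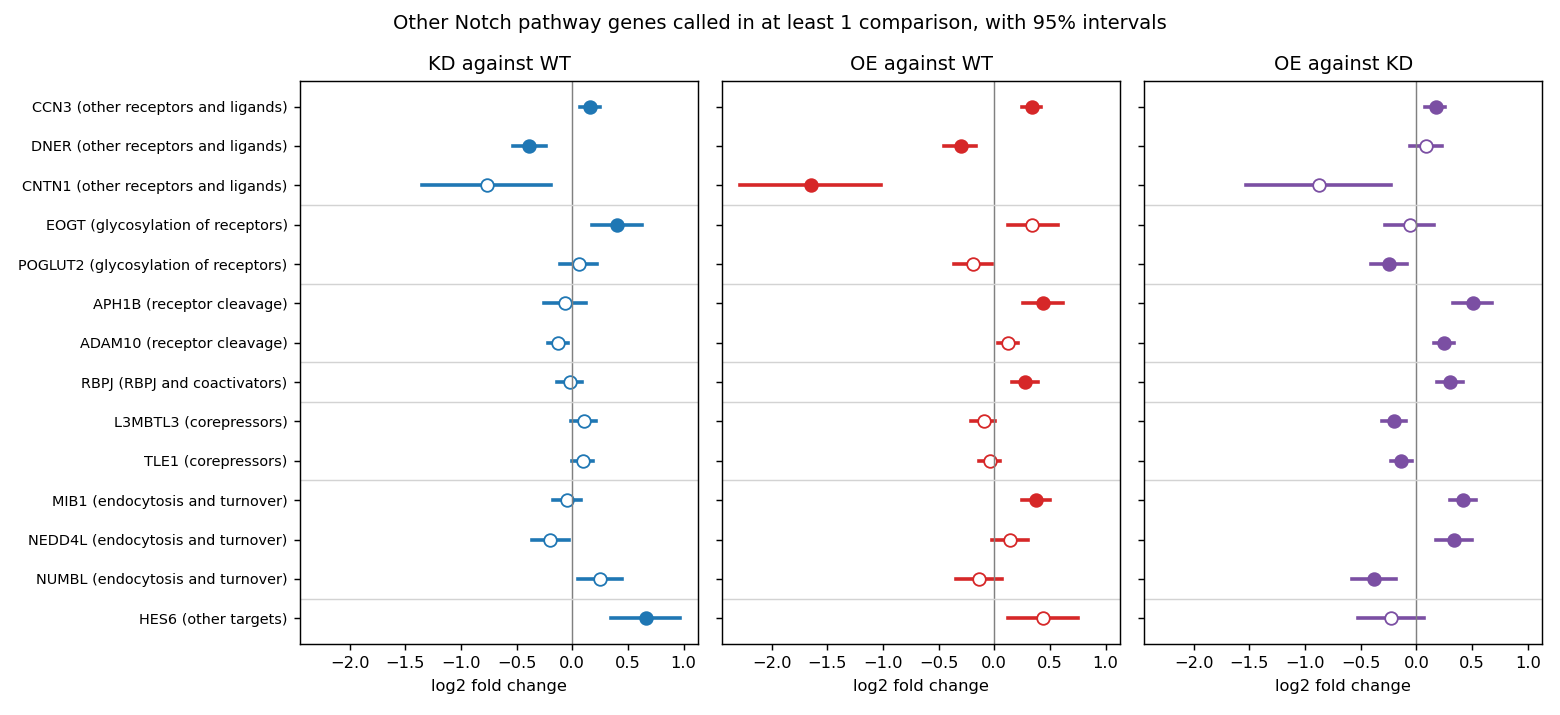
Log2 fold change (circles) with its 95% interval (lines) of the 14 other pathway genes called in at least 1 comparison, grouped by role. Filled circles passed an adjusted p of 0.05. RBPJ, APH1B and MIB1 lie to the right in OE against WT, at 0.28, 0.44 and 0.37, and near 0 in KD against WT, while DNER lies to the left in both.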

How the data were processed

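The values as deposited are unnormalised counts per Ensembl gene in 12 libraries made as strand-specific paired-end libraries from total RNA. Per the submitters' processing notes the authors' tools were HISAT2 1.03, featureCounts of Subread, FastQC and DESeq2, with GRCh38 as build. The sources used here give no annotation release, strand setting or treatment of multiply matching reads. The 3 lines that name no gene, of which 1 holds the totals, were left out, as was 1 gene with blank counts (ANK2).

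Tests used edgeR 4.0.16 (R 4.3.3). Low genes were removed by filterByExpr on the groups with a minimum count of 10 and a minimum total of 15, scaling was by TMM, and the 12 libraries were fitted together (robust quasi-likelihood), leaving 9 residual degrees of freedom. Benjamini-Hochberg adjustment ran over all 15916 genes, with calls under 0.05. A standard error is the size of the log2 change over the root of its F. CPM uses TMM-scaled totals of all genes. Coordinates and exon lengths come from GENCODE release 29. DESeq2 1.42.0 was an alternative, beside other scalings, no filter, the 2 groups alone, the replicate number as a block, and each library left out. The test was checked on simulated counts.

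All 10 genes and DLK1 are named; of the other pathway genes, up to 4 per role with the smallest adjusted p among those called; and for members changed by at least 0.5 on the log2 scale, the 3 nearest genes. The members and lists were chosen with earlier results of these data known. A marker gene of the lists is not reported here.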

Additional observations from a re-analysis of the deposited data

Results flagged for a closer look

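Among the 3 groups of 4 libraries of the 9 tested members, DLK1 and 14 pathway genes, 72 groups of values in all, 3 held a library set apart from the other 3 by more than Dixon's criterion at the 95% level; chance gives about 1 in 20. NOTCH2 was 220 CPM in WT replicate 4, against 265 to 270 in the other WT libraries. DLL1 was 6.87 CPM in the same library, WT replicate 4, against 5.54 to 5.6 in the others. APH1B was 31.0 CPM in KD replicate 5, against 25.6 to 26.3 in the others.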

How the results depend on the processing

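Over the 27 pairs of a tested member and a comparison, 25 were on the same side of the threshold under all 18 alternatives; the exceptions were JAG1 and NOTCH2 in KD against WT. The number of members called in KD against WT was 2 and became 1 with no filter on low counts, with the 2 groups fitted alone and with the replicate number as a block, in each case through the loss of JAG1 (adjusted p = 0.0567 with the block); with 1 library left out it was 1 to 2. The replicate block ended 1 other call, that of TLE1 in OE against KD (adjusted p = 0.0523). The number was not taken as a pairing in the main fit because the labels do not say what it marks. Libraries with the same number did not deviate together (correlations of -0.033 to 0.071 over genes, against -0.085 to 0.072 for other numbers). The number of other pathway genes called in KD against WT was 4, and 3 to 7 with 1 library left out (7 without KD replicate 5). All genes called in OE against WT numbered 796, and 1236 with the 2 groups alone; the cause was not tested.

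Values that were not called and lay near 0 changed sign in 12 pairs. With library sizes alone DLL3 in KD was 0.025 and DLK2 in OE 0.019, and DLK2 in OE was 0.008 with the replicate block. With 1 library left out, the ranges against WT in KD were -0.259 to 0.073 for NOTCH1, -0.009 to 0.379 for JAG2, -0.145 to 0.246 for DLL3, -0.119 to 0.084 for HES1 and -0.202 to 0.13 for DLK2, and in OE -0.36 to 0.031 for DLL3 and -0.128 to 0.118 for DLK2. In OE against KD they were -0.215 to 0.091 for NOTCH3, -0.202 to 0.186 for JAG2, -0.172 to 0.193 for DLL1, -0.154 to 0.049 for HES1 and -0.135 to 0.197 for DLK2. Among the tested members depth limits JAG2, DLL3 and JAG1 most, with 10 to 68 counts per library.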
